A study of Mus musculus with 18 samples.

Results

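The 38 genes described here encode inward rectifier (Kcnj), tandem-pore (Kcnk), calcium- and sodium-activated (Kcnm, Kcnn, Kcnt) potassium channel subunits and the Kv4-binding KChIP proteins (Kcnip). They were chosen by symbol alone in the platform's table of probes and genes, without Kcnk4, and make up 38 of 17274 named genes. Each gene was represented by its brightest of up to 4 probes, by the mean over all 18 arrays, and 65 of the 44505 probes tested belong to the group. Expression was measured in the ventral tegmental area (VTA), which holds midbrain dopamine neurons, and in the nucleus accumbens (NAc), the ventral striatal region they project to. The male C57BL/6J mice were 10.5 weeks old and were susceptible or unsusceptible to social defeat, or were controls that had not been defeated. Each array held RNA of tissue pooled from 4 mice, and each of the 6 combinations of structure and behaviour group had 3 pools, so p-values measure the spread between pools and say nothing of single animals. Per the design text, pools of one condition had comparable avoidance scores.

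Inward rectifiers pass potassium more readily into than out of the cell and hold neurons and glia near their resting potential. The G protein-gated members (GIRK channels) open when dopamine, opioid, GABA-B and other Gi/o-coupled receptors are active, tandem-pore channels carry background leak current, and calcium-activated channels shape spikes and the afterhyperpolarization that paces dopamine neurons. KChIPs are calcium-binding proteins that assemble with Kv4 channels, which carry the rapidly inactivating current of neuronal dendrites and cell bodies.

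The sequence before the annotated gene start is shown for 5 genes with large differences between the structures, to set genes of both directions side by side: Kcnj4, Kcnip2 and Kcnmb4 were lower in VTA than in NAc, and Kcnj16 and Kcnk13 were higher. They come from RefSeq on GRCm38.p6, run 5′ to 3′ on the gene's own strand over the 250 bases before the start, and capitals mark matches to the motifs named below. The windows lie at chr15:79505242-79505491, chr19:45816064-45816313 and chr10:116473524-116473773 on the minus strand, and at chr11:110967783-110968032 and chr12:99964249-99964498 on the plus strand. The Kcnj16 window is the first of 4 listed for that gene.
Kcnj4: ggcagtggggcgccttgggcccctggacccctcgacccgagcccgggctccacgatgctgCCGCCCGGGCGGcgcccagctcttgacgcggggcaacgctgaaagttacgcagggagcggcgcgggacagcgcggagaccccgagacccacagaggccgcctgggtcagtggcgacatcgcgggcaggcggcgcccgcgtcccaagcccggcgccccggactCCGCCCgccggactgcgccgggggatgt
Kcnip2: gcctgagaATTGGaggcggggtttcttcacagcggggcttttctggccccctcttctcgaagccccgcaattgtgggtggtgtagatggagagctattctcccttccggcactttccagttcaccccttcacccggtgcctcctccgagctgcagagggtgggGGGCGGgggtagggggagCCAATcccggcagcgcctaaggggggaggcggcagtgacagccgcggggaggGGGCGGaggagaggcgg
Kcnmb4: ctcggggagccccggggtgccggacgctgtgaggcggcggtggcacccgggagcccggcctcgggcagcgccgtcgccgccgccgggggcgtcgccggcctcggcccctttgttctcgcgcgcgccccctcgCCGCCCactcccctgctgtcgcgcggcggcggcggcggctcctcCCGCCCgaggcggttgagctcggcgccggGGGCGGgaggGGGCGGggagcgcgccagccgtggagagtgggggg
Kcnj16: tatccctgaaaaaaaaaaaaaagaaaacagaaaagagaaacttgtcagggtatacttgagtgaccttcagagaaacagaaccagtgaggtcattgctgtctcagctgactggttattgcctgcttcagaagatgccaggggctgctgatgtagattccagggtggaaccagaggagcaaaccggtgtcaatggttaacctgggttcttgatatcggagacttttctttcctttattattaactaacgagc
Kcnk13: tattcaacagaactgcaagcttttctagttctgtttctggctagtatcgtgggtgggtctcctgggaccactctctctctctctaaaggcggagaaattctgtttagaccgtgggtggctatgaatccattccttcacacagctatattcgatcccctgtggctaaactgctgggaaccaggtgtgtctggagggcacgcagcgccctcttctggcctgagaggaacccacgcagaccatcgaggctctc
The windows of the first 3 genes are rich in G and C, at 76.0%, 67.0% and 79.0% over 300 bases (250 before and 50 after the start), with 41, 18 and 48 CpG pairs. Those of Kcnj16 and Kcnk13 hold 44.3% and 52.7%, with 3 and 9 CpG pairs, and Kcnk2, which was also lower in VTA, holds 43.0%. The remaining members higher in VTA held 64.3% (Kcnk12), 62.3% (Kcnn1), 58.3% (Kcnj5) and 51.0% (Kcnip4). The remaining lower ones held 66.7% (Kcnj2) and 60.3% (Kcnip3). The median was 57.4% over the 32 members with a window and 52.7% over all 32851 windows. Kcnj11, Kcnj14, Kcnk3, Kcnk6, Kcnk9 and Kcnt1 have none in the table. A relation of GC content to the direction of change was not tested.

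Motifs were searched on both strands of the 300-base windows. GGGCGG, the GC box, occurred 4 times each in the windows of Kcnj4 and Kcnmb4, including 1 match of Kcnj4 past the start, and 2 times in that of Kcnip2, whose window also holds CCAAT 2 times. Kcnj4 carries a pair of adjacent GC boxes on opposite strands, at -190 and -184 from the start. GGGCGG was present in 13 of the 32 member windows and in 35.7% of all windows, CCAAT in 9 and in 37.4%, TATAAA in 2 and in 13.6%, and TGANTCA in 2 and in 7.81%. TGACGTCA (1.79% of all windows) and GCGTGGGCG (0.612%), which shares GGGCG with the GC box, matched in no member. None of the 6 motifs matched in the printed windows of Kcnj16 and Kcnk13.

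The array medians lay between 148.3 and 253.1 intensity units, with the highest in NAc unsusceptible pool 3. VTA unsusceptible pool 3 stood apart from its group: 13 dopamine neuron markers averaged 9.45 on the log2 scale there, against 10.87 and 11.58 in the other unsusceptible VTA pools, 11.26 to 11.38 in susceptible VTA pools and 11.28 to 11.58 in control VTA pools, and 8.08 to 8.26 in the NAc pools. In the same pool, 5 serotonin neuron markers averaged 7.82, against 10.06 and 9.55 in the other unsusceptible VTA pools, 9.02 to 9.73 in susceptible VTA pools and 9.77 to 10.79 in control VTA pools, and 12 oligodendrocyte markers averaged 12.43, against 12.88 and 12.85 in the other unsusceptible VTA pools. Of the dopamine neuron markers, 12 were higher in VTA than in NAc and the receptor gene Drd2, which striatal neurons share, was lower. All 12 medium spiny neuron markers were lower in VTA, where the list averaged 9.42 to 9.62, against 12.57 to 13.07 in NAc pools. The labelled structures thus carried their defining markers. No probe is at 0 on any array, and the files give no detection call, so a mean under the median probe (7.39 log2 units) is treated as a bound and a fold against it is written as at least that large. By this line 27 of the 38 members were at or above the median probe and 11 below it.

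Between the structures, the 38 genes split evenly. VTA pools had 8 members higher and 8 lower than NAc pools at an adjusted p under 0.05 over all probes (limma, 9 against 9 pools), and 22 did not pass. That is 42.1% of the members, beside 40.8% of all 17274 named genes (22.8% higher and 18% lower), so the share called was near the background. The median log2 change of the members was 0.00, beside 0.01 over all genes. Among the 27 members at or above the median probe, 55.6% were called, beside 57.6% of the 11597 named genes as bright; among the 11 below it 9.09% were called, beside 6.31% of 5677. All 9 VTA pools lay above all 9 NAc pools for 5 members and below them for 7, beside 10.8% and 8.25% of all genes. In control pools alone, 5 members were higher and 7 lower (31.6%, beside 29.4% of all genes). In bulk tissue, fewer cells of a type and less RNA per cell cannot be told apart.

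**Figure D1:**
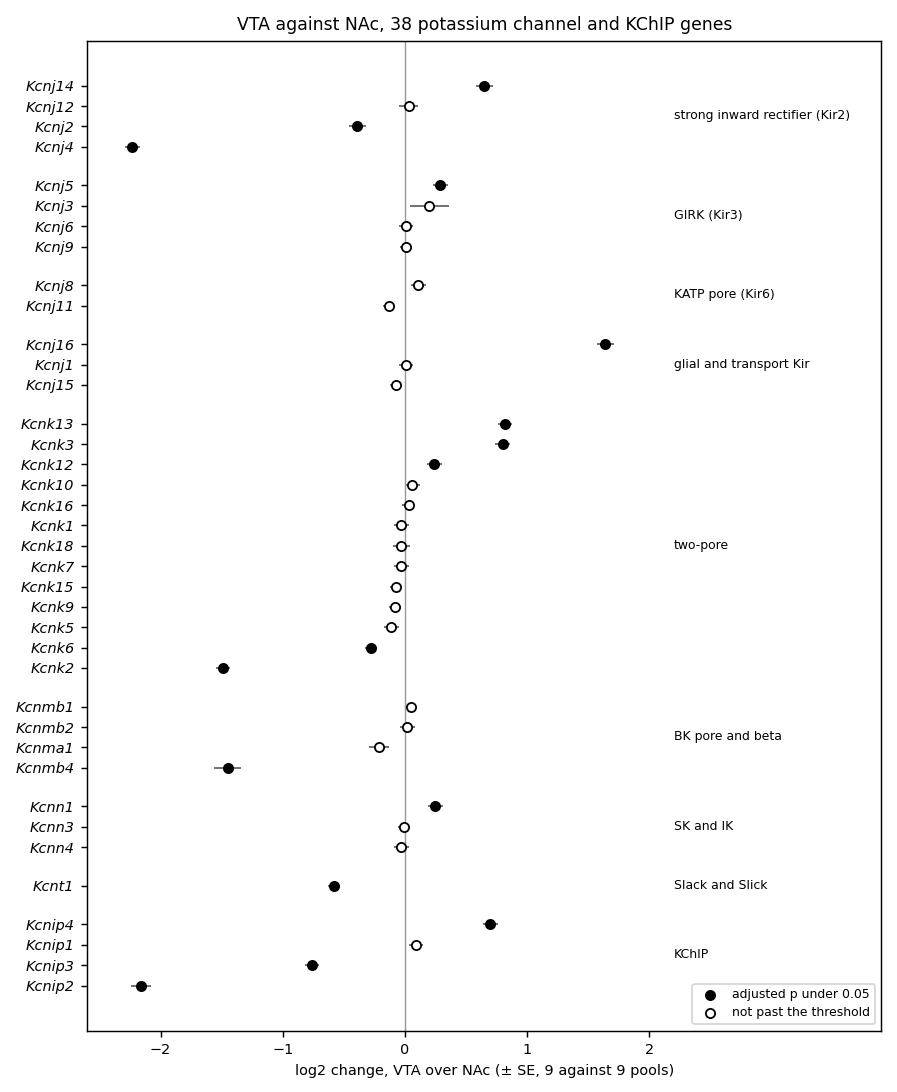
Log2 change, VTA over NAc (x axis, with SE, 9 against 9 pools), of the brightest probe of each of the 38 genes, grouped by channel family down the page; filled points passed an adjusted p of 0.05. Kcnj4 (-2.23) and Kcnip2 (-2.16) lie farthest left and Kcnj16 (1.64) farthest right, and most members lie near 0.

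Among the strong inward rectifiers (Kir2 channels), 1 of 4 members was higher in VTA and 2 were lower. Kcnj4, which encodes Kir2.3, had the largest change of the 38 genes. Its level ran from 6.82 to 7.12 in VTA pools (median 7.01) and from 9.03 to 9.43 in NAc pools (median 9.19). The ranges were far apart, and the VTA level lay under the median probe, so the difference of -2.23 ± 0.06 log2 units (SE, adjusted p 6.23e-20) is at least 4.68-fold. Kcnj2, encoding Kir2.1, the channel that classically sets the resting potential of muscle, ran from 7.00 to 7.51 in VTA (median 7.14) and from 7.28 to 7.90 in NAc (median 7.60). The pools overlapped and the change was -0.39 ± 0.07 (adjusted p 7.76e-05), a fold of at least 1.31; in control pools alone it was -0.25 and did not pass (adjusted p 0.197). Kcnj14, encoding Kir2.4, went the other way, with 8.03 to 8.42 in VTA (median 8.17) and 7.28 to 7.81 in NAc (median 7.56), a difference of 0.65 ± 0.07 (adjusted p 2.27e-08) without overlap. That holds for its brightest probe, while its other 2 probes gave -0.08 and -0.03. Kcnj12, encoding Kir2.2, had a median of 8.83 in VTA and 8.77 in NAc and did not pass (0.03 ± 0.08, adjusted p 0.84).

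The probes of the G protein-gated channel genes differed little between the structures. Kcnj6 encodes GIRK2, the subunit that carries the autoreceptor current of midbrain dopamine neurons, and it averaged 7.64 ± 0.15 in VTA pools and 7.63 ± 0.13 in NAc pools (SD, n = 9 each), a change of 0.01 ± 0.06. Its 4 probes gave changes between -0.05 and 0.08. Kcnj9, which encodes GIRK3, averaged 7.44 in VTA and 7.43 in NAc (0.01 ± 0.05). Both levels lay just above the median probe of the array, so a difference could be hidden. Kcnj3, encoding GIRK1, spread most of the 4, from 8.45 to 9.72 in VTA (median 9.18) and from 7.86 to 9.70 in NAc (median 9.11), and did not pass (0.20 ± 0.16, adjusted p 0.441). Kcnj5, encoding the cardiac subunit GIRK4, was higher in VTA, at 7.40 to 7.90 (median 7.58), against 7.17 to 7.49 in NAc (median 7.31). The pools overlapped at the edge, the change was 0.29 ± 0.06 (adjusted p 0.000832; at least 1.22-fold), and its other probe gave -0.04. In control pools alone the Kcnj5 change was 0.30 and did not pass (adjusted p 0.0608). Kcnj3 averaged 9.17 in control VTA pools and 8.66 in control NAc pools, which did not pass either.

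Of 29 measured genes of a list of 33 receptors, G protein subunits and regulators that act on GIRK channels, 5 were higher in VTA and 13 lower, beside 22.8% and 18% of all named genes, and the list median was -0.11, beside 0.01 over all genes. Gng7, a G protein gamma subunit abundant in striatal neurons, changed by -3.18 ± 0.09 (adjusted p 3.87e-19), and the beta subunit genes Gnb5 (-0.98), Gnb2 (-0.88) and Gnb4 (-0.98) were lower as well. Gnai2 (0.42) and Gng2 (0.75), an inhibitory alpha and a gamma subunit, were higher in VTA, as were the serotonin receptor Htr1a (0.66) and the muscarinic receptor Chrm2 (0.36). The GABA-B receptor genes Gabbr1 and Gabbr2 gave 0.01 and 0.06 and did not pass.

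The pore subunits of ATP-sensitive potassium channels, which link metabolism to excitability, did not pass between the structures. Kcnj11, encoding Kir6.2, averaged 8.09 ± 0.08 in VTA and 8.22 ± 0.09 in NAc (-0.13 ± 0.05, adjusted p 0.0551). Kcnj8, encoding Kir6.1 and used as a pericyte marker in brain, averaged 7.81 ± 0.17 in VTA and 7.70 ± 0.07 in NAc (0.11 ± 0.06, adjusted p 0.22). Of 10 pericyte and smooth muscle markers, 5 were higher in VTA and none was lower (list median 0.19), beside 22.8% and 18% of all named genes.

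Kcnj16, the glial inward rectifier gene, had the largest positive change. It encodes Kir5.1, which joins Kir4.1 in glia and kidney. Its level ran from 10.31 to 10.63 in VTA pools (median 10.51), against 8.67 to 9.23 in NAc pools (median 8.79). No pool overlapped, and the difference was 1.64 ± 0.07 log2 units, or 3.11-fold (adjusted p 5.99e-16). Of 11 astrocyte markers, 9 were higher in VTA and 2 lower (median 0.52), and 12 of 12 oligodendrocyte markers were higher (median 0.94). Of 4 oligodendrocyte precursor markers, 2 were higher (median 0.1), while 7 of 9 microglia markers were lower (median -0.32). Of all named genes, 22.8% were higher and 18% lower. The part of these cell types in the Kcnj16 difference was not tested. The transport channel genes Kcnj1 and Kcnj15, known from kidney, gave 0.01 and -0.07.

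**Figure D2:**
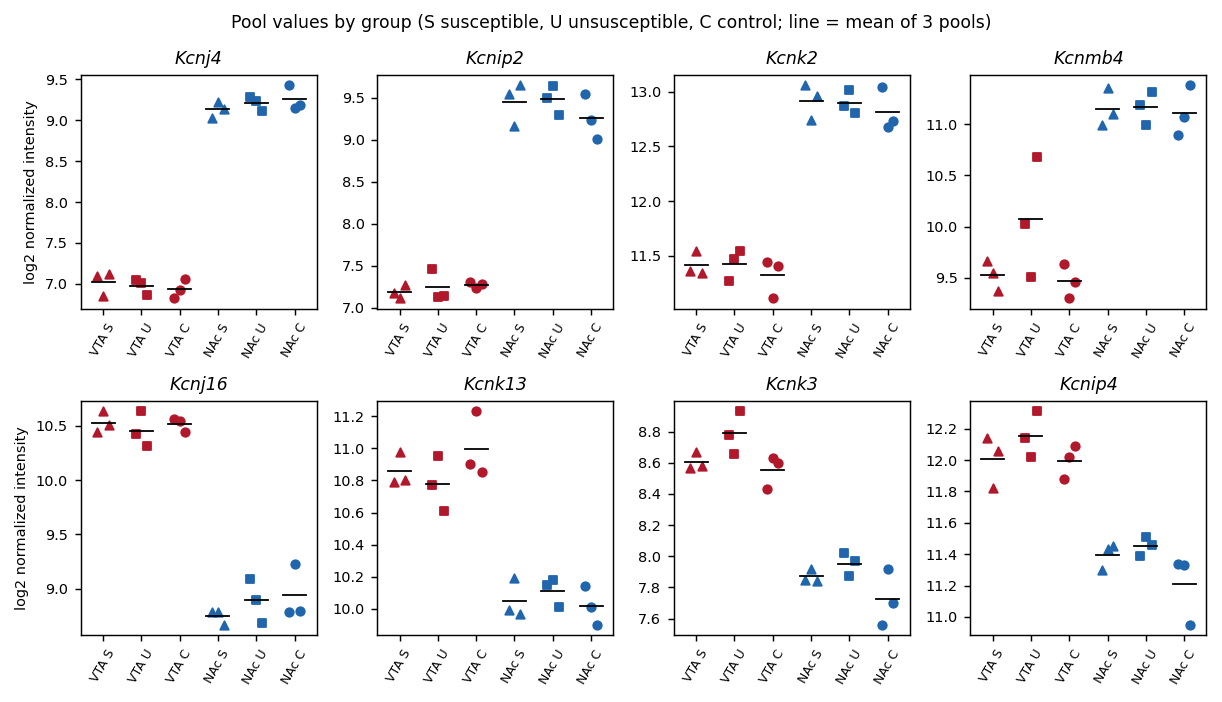
Log2 normalized intensity (y axis) of 8 members in each of the 18 pools, by structure and behaviour group (S susceptible, U unsusceptible, C control), with lines at the mean of 3 pools. The VTA and NAc pools do not overlap in any of the 8 panels, and VTA unsusceptible pool 3 has the highest VTA value of Kcnmb4, 10.68.

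Of the 13 tandem-pore channel genes, 3 were higher in VTA, 2 lower and 8 did not pass. Kcnk2 encodes TREK-1, a channel gated by stretch and lipids and targeted by anaesthetics. It ran from 11.11 to 11.54 in VTA (median 11.41), against 12.68 to 13.06 in NAc (median 12.87). The ranges were well apart, with a change of -1.49 ± 0.06 (adjusted p 1.06e-15), or 2.81-fold lower; its dim other probe gave -0.22. Kcnk6, encoding TWIK-2, was lower by a small but separate margin, at 8.27 to 8.56 in VTA (median 8.46), against 8.67 to 8.79 in NAc (median 8.75). The change was -0.28 ± 0.05 (adjusted p 3.75e-05) for its brightest probe. It ran from -0.32 to -0.13 under the alternative processings described below, which include the mean of a gene's probes.

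Kcnk13 and Kcnk3 were the tandem-pore genes clearly higher in VTA. Kcnk13 encodes THIK-1, the potassium channel of resting microglia, and ran from 10.61 to 11.23 in VTA (median 10.85), against 9.90 to 10.19 in NAc (median 10.01). That is 0.82 ± 0.06 log2 units (adjusted p 1.02e-10) without overlap, for the brightest probe; the other probe gave 0.00. Of 9 microglia markers, 7 were lower in VTA and none higher (median -0.32), so the marker list ran opposite to Kcnk13. Of all named genes, 18% were lower and 22.8% higher. Kcnk3, encoding the acid-sensitive TASK-1, ran from 8.43 to 8.93 in VTA (median 8.63), against 7.56 to 8.02 in NAc (median 7.87), a change of 0.80 ± 0.06 (adjusted p 1.65e-11), and its other probe gave 0.40. Kcnk12, encoding THIK-2, overlapped between the structures (0.24 ± 0.06, adjusted p 0.00311) and did not pass in control pools alone (0.14, adjusted p 0.449). Kcnk1, encoding TWIK-1 and well measured at 10.60 in VTA and 10.63 in NAc, did not differ beyond its spread (-0.03 ± 0.06). The other 7 genes, Kcnk5, Kcnk7, Kcnk9, Kcnk10, Kcnk15, Kcnk16 and Kcnk18, averaged between 6.87 and 7.49 in both structures, with changes from -0.11 to 0.06.

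Of the large-conductance calcium-activated (BK) channel genes, 1 of 4 was called, that of an accessory subunit. Kcnmb4 encodes beta4, the main neuronal beta subunit, which slows BK gating. Its level ran from 9.30 to 10.68 in VTA (median 9.55), against 10.89 to 11.38 in NAc (median 11.10). The structures did not overlap, although VTA unsusceptible pool 3, at 10.68, came close to the lowest NAc pool, at 10.89; the change was -1.45 ± 0.11 (2.73-fold lower, adjusted p 3.98e-11). The pore gene Kcnma1 ran from 10.34 to 10.93 in VTA (median 10.45) and from 10.25 to 11.07 in NAc (median 10.68) and did not pass (-0.21 ± 0.08, adjusted p 0.0534). A dimmer Kcnma1 probe did pass, at -0.33 ± 0.06, and a further one gave -0.04. The beta subunit genes Kcnmb1, known from smooth muscle, and Kcnmb2 lay near the median probe or under it and gave 0.05 and 0.02.

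Of the small- and intermediate-conductance channel genes, 1 of 3 members was called between the structures. Kcnn2 is not among the members. Kcnn3 encodes SK3, which regulates pacemaking in dopamine neurons, and averaged 7.30 in VTA and 7.31 in NAc (-0.01 ± 0.05), just under the median probe. Kcnn1, encoding SK1, was higher in VTA by 0.25 ± 0.06 (adjusted p 0.00153) with overlapping pools, and did not pass in control pools alone (adjusted p 0.0826), in the mean of its probes (0.13, adjusted p 0.0537) or after median scaling (0.20, adjusted p 0.0829). Kcnn4, the intermediate-conductance channel of blood cells and microglia, averaged 7.23 in VTA and 7.26 in NAc (-0.03). Kcnn3 and Kcnn4 lay under the median probe in both structures, so a difference in their levels could be hidden. Kcnt1, encoding the sodium-activated Slack channel, ran from 9.36 to 9.60 in VTA (median 9.52), against 9.91 to 10.27 in NAc (median 10.08). It was lower in VTA without overlap (-0.58 ± 0.05, adjusted p 3.12e-09). That is the value of its brightest probe. Under the alternative processings described below, which include the mean of a gene's probes, the Kcnt1 change ran from -0.61 to -0.27.

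The KChIP genes moved in both directions. Kcnip2 ran from 7.11 to 7.46 in VTA (median 7.23), against 9.01 to 9.65 in NAc (median 9.50). The change of -2.16 ± 0.08 (adjusted p 2.06e-17) is at least 4.48-fold, since the VTA level lay under the median probe. That holds for its brightest probe in the main processing. The Kcnip2 change ran from -2.57 to -1.3 under the alternatives described below, which include the mean of a gene's probes. Kcnip3, whose product is also known as calsenilin and as the transcriptional repressor DREAM, ran from 9.94 to 10.35 in VTA (median 10.18), against 10.81 to 11.17 in NAc (median 10.91), a change of -0.76 ± 0.06 (adjusted p 3.69e-11). Kcnip4 was higher, at 11.82 to 12.31 in VTA (median 12.06), against 10.95 to 11.51 in NAc (median 11.39), a change of 0.70 ± 0.06 (adjusted p 1.04e-09). None of the 3 overlapped between structures, but the dim other probes of Kcnip4 gave 0.14 and 0.01. Kcnip1 averaged 9.89 in VTA and 9.80 in NAc and did not pass (0.09 ± 0.06).

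Among 13 measured partner proteins of these channels, from a list of 14, 2 were higher in VTA and 4 lower (median 0.01). Of all named genes, 22.8% were higher and 18% lower. Among the lower ones were members of the Kv4 complex that KChIPs join. The pore gene Kcnd2 changed by -0.98 ± 0.11 (adjusted p 5.01e-08) and the auxiliary gene Dpp6 by -0.61 ± 0.05 (adjusted p 1.14e-09). Kcnd3, a further Kv4 pore gene, gave 0.03 and did not pass. Calm2, a calmodulin gene whose product is the calcium sensor of SK channels, was lower (-0.42), and Abcc9, the sulfonylurea receptor that pairs with Kir6.1, was higher (0.23).

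**Figure D3:**
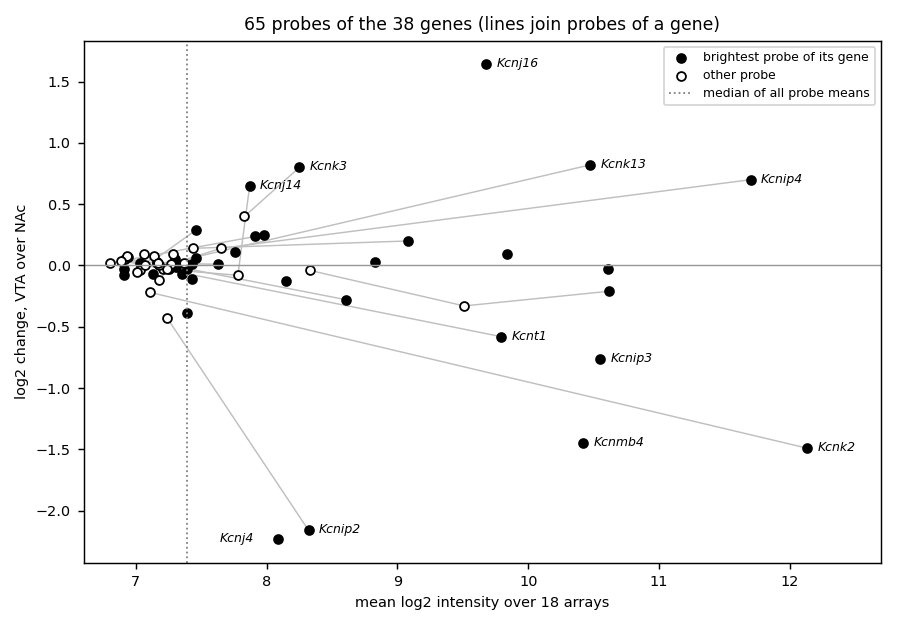
Log2 change, VTA over NAc (y axis), against mean log2 intensity over 18 arrays (x axis) for all 65 probes, with grey lines joining probes of a gene; filled points are the brightest probe and the dotted line is the median of all probe means, 7.39. Dimmer probes lie nearer to 0 than the brightest probe of the same gene for Kcnip2, Kcnk2, Kcnk13, Kcnip4 and Kcnj14.

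The contrasts between behaviour groups called none of the 38 genes at an adjusted p under 0.05 in either structure (limma, 3 against 3 pools). Calls were rare in the whole table: 0.0637% of all named genes passed for susceptible against control in NAc, 0.00579% for unsusceptible against control in NAc and 0.0116% for unsusceptible against control in VTA. The percentage called was 0 for susceptible against control in VTA and for susceptible against unsusceptible in both structures. The smallest adjusted p of a member was 0.598, 0.317 and 0.482 in the first 3 of these contrasts, 1 for susceptible against control in VTA, and 0.895 in VTA and 0.999 in NAc for susceptible against unsusceptible. At an unadjusted p under 0.05, in VTA there were 6 members higher and 0 lower for unsusceptible against control (4.31% and 3.68% of all named genes), 0 and 1 for susceptible against control (1.67% and 1.48%), and 2 and 4 for susceptible against unsusceptible (2.64% and 3.07%). In NAc there were 2 higher and 1 lower for unsusceptible against control (6.39% and 6.7%), 1 and 0 for susceptible against control (3.36% and 5.01%), and 0 and 0 for susceptible against unsusceptible (1.81% and 2.15%). The member medians lay between -0.03 and 0.06 in the 6 contrasts, beside -0.02 to 0.01 over all genes.

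**Figure D4:**
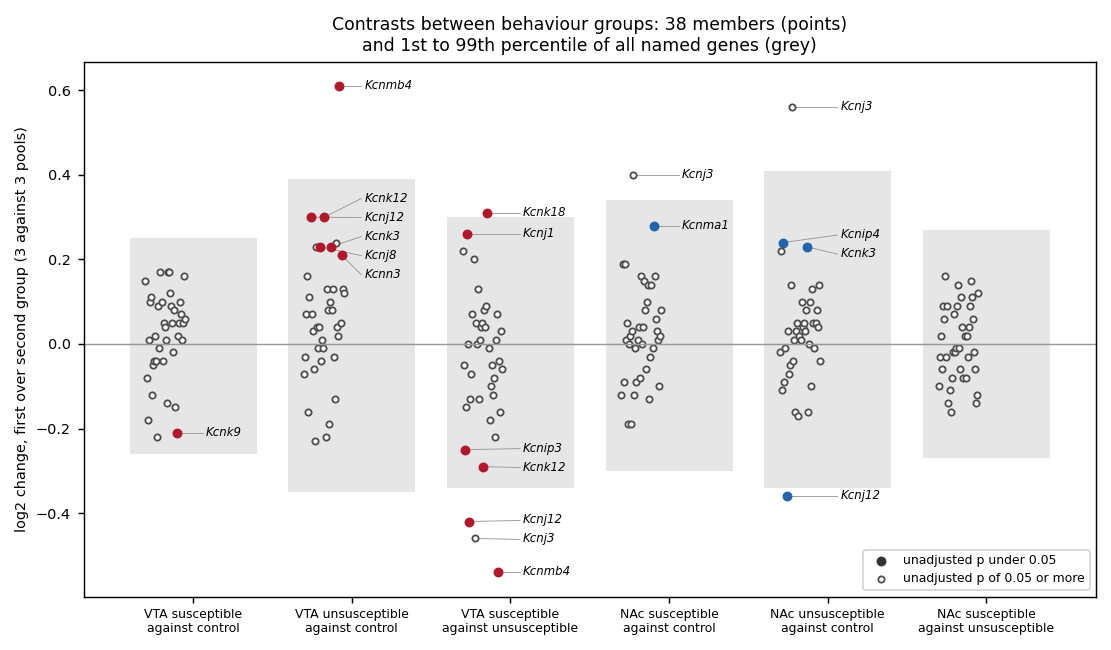
Log2 change (y axis) of each of the 38 members in 6 contrasts between behaviour groups of 3 pools each (x axis), with filled points for an unadjusted p under 0.05 and grey bands for the 1st to 99th percentile of all named genes. Kcnmb4 stands above the band for unsusceptible against control in VTA (0.61), and Kcnj3 above it for susceptible (0.40) and unsusceptible (0.56) against control in NAc. Kcnj12 lies below it for unsusceptible against control in NAc (-0.36). For susceptible against unsusceptible in VTA, Kcnmb4 (-0.54), Kcnj3 (-0.46) and Kcnj12 (-0.42) lie below the band and Kcnk18 (0.31) above it. No point passed the adjusted threshold.

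For unsusceptible against control mice in VTA, Kcnmb4 had the largest change. It measured 10.03, 9.51 and 10.68 in unsusceptible pools, against 9.64, 9.30 and 9.46 in control pools. Pools 1 and 3 lay above every control pool and pool 2 within them, and the change was 0.61 ± 0.19 (adjusted p 0.482). It rested on pool 3: the change was 0.31 without that pool and 0.89 (adjusted p 0.00784) without unsusceptible pool 2. With pool 2 left out, 270 of all 44505 probes passed in this contrast. The pool with the highest Kcnmb4, at 10.68, was the one with the lowest dopamine marker level, 9.45, and the pool second highest for Kcnmb4, 10.03, was second lowest for those markers, 10.87; the part of that tissue difference in the Kcnmb4 values was not tested. Both named genes called in this contrast were oligodendrocyte markers, Mobp (-0.75 ± 0.12) and Mog (-0.66 ± 0.10; adjusted p 0.0259 each), and that list averaged 12.43 to 12.88 in unsusceptible pools, against 13.04 to 13.20 in control pools. Its part in the changes given here was not tested.

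Kcnj12 followed a like order in VTA, at 9.16, 8.66 and 9.44 in unsusceptible pools, against 8.93, 8.59 and 8.83 in control pools (0.30 ± 0.14, adjusted p 0.713). Kcnk12 measured 8.24, 8.32 and 8.12 in unsusceptible pools, against 7.68, 8.04 and 8.07 in control pools. All 3 unsusceptible pools were above all control pools (0.30 ± 0.11, adjusted p 0.551), and the change was 0.35 without unsusceptible pool 3 and 0.17 without control pool 1. Kcnn3 (7.43, 7.45 and 7.40 against 7.15, 7.16 and 7.34 in control pools) and Kcnk3 (8.78, 8.66 and 8.93 against 8.43, 8.63 and 8.60) also lay wholly above the controls, by 0.21 ± 0.08 and 0.23 ± 0.10. In all, 5 of the 38 members lay wholly above the controls in this contrast, beside 7.92% of all named genes. Lower in unsusceptible pools, short of the threshold, were Kcnk13 (10.77, 10.95 and 10.61, against 10.90, 11.23 and 10.85 in control pools) and Kcnj2 (7.05, 7.00 and 7.08, against 7.26, 7.51 and 7.07), with changes of -0.22 and -0.23, or -0.10 and -0.12 without control pool 2. Kcnk18 was the 1 member wholly below the controls, at 6.68, 6.73 and 6.77 in unsusceptible pools, against 6.99, 6.91 and 6.85 in control pools (-0.19 ± 0.11, adjusted p 0.791), beside 5.61% of all named genes.

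For susceptible against unsusceptible mice in VTA, the same unsusceptible pools enter, so the values below are not independent of those above. Kcnmb4 measured 9.67, 9.55 and 9.37 in susceptible pools (-0.54 ± 0.19, adjusted p 0.895), and Kcnj12 measured 8.59, 8.84 and 8.56 (-0.42 ± 0.14, adjusted p 0.895). Both changes were smaller without unsusceptible pool 3, at -0.24 and -0.25, and passed without unsusceptible pool 2, at -0.82 (adjusted p 0.0236) and -0.63 (adjusted p 0.0237). With pool 2 left out, 138 of all 44505 probes passed in this contrast. Kcnk12 in susceptible pools, at 7.93, 7.91 and 7.98, lay wholly below the unsusceptible pools (-0.29), as 4.66% of all genes did, and likewise Kcnip3, at 9.94, 10.18 and 9.97, against 10.19, 10.29 and 10.35 in unsusceptible pools (-0.25). In the other direction, Kcnk18 measured 7.15, 7.04 and 6.94 in susceptible pools, against 6.68, 6.73 and 6.77 in unsusceptible pools, wholly above them (0.31 ± 0.11; 4.61% of all genes), and Kcnj1 measured 7.13, 7.22 and 7.19, against 6.76, 7.14 and 6.87 (0.26 ± 0.11). Both probes lie under the median probe. Kcnip1 measured 9.88, 10.19 and 9.97 in susceptible pools, against 9.65, 9.95 and 9.78 in unsusceptible pools (0.22). Kcnn3 also lay wholly below, at 7.18 to 7.37 in susceptible pools, against 7.40 to 7.45 in unsusceptible pools. In all, 2 of the 38 members lay wholly above the unsusceptible pools and 3 wholly below, beside 4.61% and 4.66% of all genes.

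For susceptible against control mice in VTA, the member changes lay between -0.22 and 0.17. Kcnk9 measured 6.81, 6.69 and 6.83 in susceptible pools, against 7.13, 6.85 and 6.96 in control pools, wholly below them (-0.21 ± 0.09, adjusted p 1; 3.86% of all genes), under the median probe. Kcnk15 measured 7.19, 7.18 and 7.13, against 6.91, 7.11 and 6.98 in control pools (0.17). Kcnk16 measured 7.12, 7.25 and 7.42, against 7.13, 7.00 and 7.13 in control pools, and overlapped (0.17). Kcnk15 and Kcnk16 also lay under the median probe. Kcnj6 measured 7.57, 7.78 and 7.88 in susceptible pools, against 7.71, 7.56 and 7.44 in control pools, which overlap (0.17 ± 0.11). Kcnip3 had 10.33, 10.16 and 10.13 in control pools, a change of -0.18, and Kcnk7 measured 7.22, 7.29 and 7.34, against 7.47, 7.32 and 7.52 (-0.15).

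For unsusceptible against control mice in NAc, the inward rectifier gene Kcnj12 measured 8.77, 8.65 and 8.50 in unsusceptible pools, against 9.16, 8.90 and 8.92 in control pools. Every unsusceptible pool lay below every control pool (-0.36 ± 0.14, adjusted p 0.317), as was so for 8.11% of all genes. Kcnip4 measured 11.39, 11.51 and 11.46, against 11.34, 11.33 and 10.95, wholly above the controls (0.24 ± 0.11; 6.59% of all genes), and the change was 0.12 without control pool 3. Kcnk3 measured 8.02, 7.87 and 7.97, against 7.56, 7.92 and 7.70, and overlapped (0.23 ± 0.10). Kcnj3 had the largest change and the widest spread, with 9.34, 8.62 and 9.70 in unsusceptible pools, against 7.86, 8.71 and 9.39 in control pools (0.56 ± 0.28, adjusted p 0.453). It was 0.16 without control pool 1 and 0.94 without control pool 3. Scaling the arrays to one median in place of quantile normalization raised Kcnj3 to 1.03 (adjusted p 0.0468) and Kcnip2 to 0.68 (adjusted p 0.0252), past the threshold, and turned Kcnj12 to 0.05. With that scaling, 1229 of all 44505 probes passed in this contrast. Kcnk1 (10.71, 10.63 and 10.29, against 10.73, 10.72 and 10.68) and Kcnk5 (7.44, 7.34 and 7.48, against 7.67, 7.41 and 7.65) gave -0.17 and -0.16. The Kcnk1 change was -0.04 without unsusceptible pool 3, the array of highest median intensity, and 0.40 after median scaling.

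For susceptible against control mice in NAc, 3 of the 11 named genes called were blood markers. The 5 blood markers averaged 11.78, 11.69 and 11.37 in susceptible NAc pools, against 10.60, 10.52 and 10.30 in control NAc pools, and 12.09, 11.81 and 11.56 in susceptible VTA pools, against 11.22, 10.53 and 10.71 in control VTA pools. The susceptible pools lay above the controls in both structures, and the part of blood in the susceptible contrasts was not tested. Kcnma1, the 1 member with an unadjusted p under 0.05, measured 10.68, 11.07 and 10.85 in susceptible pools, against 10.25, 10.85 and 10.64 in control pools, which overlap (0.28 ± 0.14, adjusted p 0.598), and the change was 0.12 without control pool 1. Kcnj3 measured 9.11, 8.93 and 9.11 in susceptible pools and changed by 0.40 ± 0.28 (adjusted p 0.765). Kcnk15 measured 7.29, 7.24 and 7.24 in susceptible pools, against 7.17, 7.06 and 7.08 in control pools and 7.20, 7.01 and 7.23 in unsusceptible pools, wholly above both (0.15 and 0.11), as were 4.47% and 4.14% of all genes. Kcnip4, at 11.30, 11.43 and 11.45, gave 0.19 against controls, or 0.06 without control pool 3. Kcnj16 was lower, at 8.79, 8.79 and 8.67, against 8.79, 9.23 and 8.80 in control pools (-0.19, or -0.04 without control pool 2) and 9.09, 8.90 and 8.69 in unsusceptible pools (-0.14), and Kcnj12, at 8.90, 8.76 and 8.74, and Kcnk5, at 7.39, 7.55 and 7.39, gave -0.19 and -0.13. Against unsusceptible mice, the remaining members of smallest p were Kcnk10, Kcnmb1, Kcnn3 and Kcnn4. Kcnk10 (7.55, 7.58 and 7.45, against 7.48, 7.19 and 7.49) gave 0.14, or 0.04 without unsusceptible pool 2. Kcnmb1 (7.39, 7.41 and 7.31, against 7.26, 7.23 and 7.27) lay wholly above the unsusceptible pools (0.11), and also above the control pools, at 7.17 to 7.24. Kcnn3 (7.15, 7.23 and 7.31, against 7.43, 7.39 and 7.29) gave -0.14. Kcnn4 (7.38, 7.19 and 7.11, against 7.30, 7.45 and 7.29) gave -0.12.

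The remaining GIRK values also overlapped between behaviour groups. In VTA, Kcnj3 measured 9.22, 8.45 and 9.18 in susceptible pools and 9.59, 8.91 and 9.72 in unsusceptible pools, against 9.26, 9.12 and 9.14 in control pools. Its change was -0.46 ± 0.28 (adjusted p 0.922) for susceptible against unsusceptible, and pool 2 was the lowest of each group. Kcnj5 measured 7.57, 7.58 and 7.63 in susceptible VTA pools and 7.49, 7.40 and 7.90 in unsusceptible VTA pools, against 7.60, 7.57 and 7.65 in control VTA pools. In NAc, Kcnj5 measured 7.31, 7.20 and 7.41 in susceptible pools and 7.21, 7.39 and 7.38 in unsusceptible pools, against 7.27, 7.49 and 7.17 in control pools. Its changes in the 6 contrasts lay between -0.02 and 0.01. Kcnj9 measured 7.34, 7.57 and 7.39 in susceptible VTA pools and 7.32, 7.44 and 7.51 in unsusceptible VTA pools, against 7.55, 7.49 and 7.36 in control VTA pools. In NAc, Kcnj9 measured 7.45, 7.56 and 7.30 in susceptible pools and 7.46, 7.44 and 7.44 in unsusceptible pools, against 7.41, 7.46 and 7.32 in control pools. Its changes lay between -0.04 and 0.05. Kcnj6 measured 7.50, 7.56 and 7.76 in unsusceptible VTA pools, and in NAc 7.69, 7.61 and 7.56 in susceptible pools and 7.53, 7.56 and 7.56 in unsusceptible pools, against 7.53, 7.68 and 7.93 in control pools. Its changes lay between -0.16 and 0.17.

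The effect of defeat was compared between the structures by an interaction term. No member passed, as did no named gene, for the susceptible effect (smallest member adjusted p 0.789) or the unsusceptible effect (0.29). Kcnj12 had the largest interaction of the unsusceptible effect, 0.66 ± 0.20 log2 units (adjusted p 0.29), from the changes of 0.30 in VTA and -0.36 in NAc given above. The interaction was 0.87 (adjusted p 0.0445) without VTA unsusceptible pool 2, where 56 of all 44505 probes passed. The 29 genes of receptor coupling and the 13 partner genes had no call in any contrast between behaviour groups.

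Within the NAc, the pools varied in marker content, and 1 member, Kcnmb4, followed a marker list past adjustment. The mean of 7 cortical excitatory neuron markers was 9.68, 9.99 and 9.53 in susceptible pools and 9.97, 9.50 and 10.10 in unsusceptible pools, against 9.15, 9.62 and 10.13 in control pools. The mean of 12 medium spiny neuron markers was 12.88, 12.65 and 12.91 in susceptible pools and 12.80, 12.94 and 12.57 in unsusceptible pools, against 13.07, 12.60 and 12.58 in control pools. The lists ran opposite to each other over the 9 NAc pools (Pearson's r -0.83, exact permutation p 0.00692; Spearman's rho -0.88, exact permutation p 0.00308), and neither list separated the behaviour groups, whose ranges overlap.

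Of 76 relations of the 38 members with the 2 lists over the 9 NAc pools, 1 passed Benjamini-Hochberg adjustment. Kcnmb4 followed the cortical list (r 0.93, exact permutation p 0.000502, adjusted p 0.0381; rho 0.90, exact permutation p 0.00216, adjusted p 0.139), with an r of 0.87 without the 2 pools farthest from the median and 0.94 on deviations from group means. Kcnj3 followed the same list without passing (r 0.87, exact permutation p 0.00232, adjusted p 0.0667; rho 0.84), with an r of 0.72 without the 2 farthest pools. Kcnk2 (r 0.91, adjusted p 0.0667 from an exact permutation test, rho 0.78) and Kcnip2 (r 0.86, adjusted p 0.0831, rho 0.82) followed the medium spiny list and did not pass either. Both were lower in VTA. Kcnk16 followed that list about as closely (r 0.82, adjusted p 0.0831 from the same test, rho 0.87). It lay under the median probe in both structures, at 7.18 in VTA and 7.14 in NAc. The NAc control pool at the bottom of the cortical list, 9.15, is the one with the lowest Kcnj3, 7.86, and the part of this variation in the Kcnj3 contrasts was not tested.

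**Figure D5:**
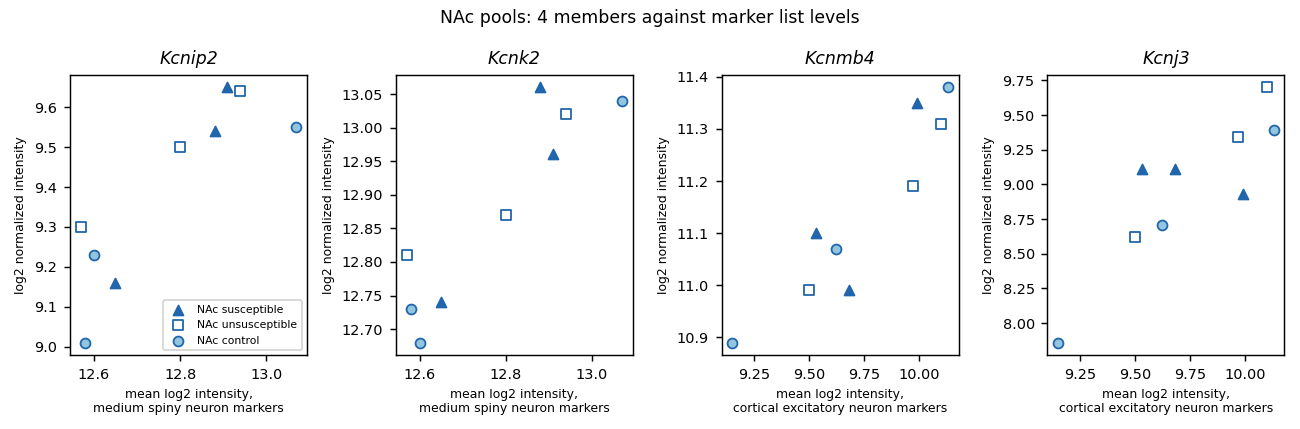
Log2 normalized intensity (y axis) of 4 members in the 9 NAc pools against the mean log2 intensity of medium spiny or cortical excitatory neuron markers (x axis), with a symbol for each behaviour group. Kcnip2 and Kcnk2 are higher in pools with more medium spiny marker signal and Kcnmb4 and Kcnj3 in pools with more cortical marker signal, and the ranges of the behaviour groups overlap.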

How the data were processed

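RNA of 18 tissue pools was hybridised to 1-colour oligonucleotide arrays. Per the labels' protocols, total RNA was linearly amplified and labelled with biotin. The per-array tables deposited by the authors hold 1 linear intensity per probe, with no background or detection column; the series table deposited by the authors is also on the intensity scale, after normalization (affy is the tool named in the submitters' processing notes) and served as an alternative.

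Of 44547 probes, 42 empty ones were left out. The deposited intensities were log2-transformed, then quantile normalized with limma 3.58.1 in R 4.3.3. No background was subtracted here, and whether the scanner software had done so is not given in the sources used here; any background left in the values shrinks the changes of dim probes. A single limma fit of group means, with an intensity trend, covered 44505 probes and gave two-sided tests, with Benjamini-Hochberg adjustment over all probes of a contrast and a threshold of 0.05. Errors of changes are standard errors of the model.

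Members were named with pool values if they passed a contrast of behaviour groups, were among the 3 of smallest p per direction of such a contrast, or among the 10 largest changes each way between structures, or encode GIRK subunits; of list genes, up to 4 of smallest p per direction. Gabbr1, Gabbr2 and Kcnd3 were picked after their values were seen, and the remaining members are summarised. Members and lists were chosen with earlier results of these data known.

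The pools of 1 replicate number were compared across structures: deviations from group means correlated between -0.03 and 0.279 in 9 pairs, over 0.1 in 3 (median 0.06), and those of other numbers between -0.242 and 0.073 in 18 pairs (median -0.027). Within a structure, same-number pools of different behaviour groups correlated between -0.088 and 0.303 in 18 pairs, over 0.1 in 6 (median 0.051). Not every same-number pair was over 0.1, so numbers were not treated as pairs. The alternatives were other normalizations and background offsets, a filter on dim probes, array weights, the mean of all probes, the replicate block and leaving out pools. The tests were also run on simulated arrays with independent noise for each probe. That check does not cover variation shared by the probes of a pool.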

Additional observations from a re-analysis of the deposited data

How the results depend on the processing

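Under named alternatives, 130 of 132 counts of members stayed within 1.5 times the value reported. Of the single-member results, 553 of 558 kept direction and side of the threshold. The counts between behaviour groups and for the interactions were all 0 in the main fit. Those counts could move only by gaining a call, and no member there could lose one. For VTA against NAc, 7 to 8 members were higher and 8 to 10 lower, and without 1 pool 8 to 9 and 8 to 10. Median scaling gave 4 members lower for VTA control against NAc control, against 7. For NAc unsusceptible against control it called 2, Kcnip2 (0.68, adjusted p 0.0252) and Kcnj3 (1.03, adjusted p 0.0468). There 1229 of 44505 probes passed, while 1 of 17274 named genes passed by its brightest probe in the main fit. Median scaling turned Kcnj12 to 0.05 (adjusted p 0.901) and Kcnk1 to 0.40 (adjusted p 0.248), and the cause was not tested. Kcnn1 missed the threshold between structures under median scaling (0.20, adjusted p 0.0829) and as the mean of its probes (0.13, adjusted p 0.0537). With 1 pool left out, members called ranged from 0 to 1 for VTA unsusceptible against control, 0 to 2 for VTA susceptible against unsusceptible and 0 to 1 for the unsusceptible effect in VTA against NAc, and for control pools of the structures from 5 to 6 higher and 7 to 9 lower. With the replicate block, 8 members were higher and 9 lower in VTA, also with the block within the behaviour group, and none was called between behaviour groups; the numbers did not meet the rule for pairs, although 3 of 9 same-number and 0 of 18 other-number pairs correlated over 0.1. VTA against NAc has no fit of fewer groups, since all 6 enter it. Median scaling moved the median of all probes by under 0.01 for VTA against NAc. The number of arrays limits the precision, and 11 members below the median probe can hide changes.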
